A study of Homo sapiens with 60 samples.

Results

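Cytosolic ribosomal proteins are described here across a set of herbal extract treatments of SW1783, an established human astrocytoma cell line. The members are the genes whose symbol follows the RPL or RPS pattern, together with RPLP0, RPLP1, RPLP2 and RPSA, without pseudogenes. There were 81 of them among the 60675 genes counted. They comprise 43 proteins of the large subunit, 31 of the small subunit, 3 of the stalk and 4 paralogues (RPL3L, RPL10L, RPL39L and RPS27L). FAU, which encodes a ribosomal protein fused to a ubiquitin-like domain, falls outside the name pattern and is given with the gene lists. The Y-linked members of the family are not reported.

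Cells were kept for 24 h with material that had been extracted in 70% ethanol, from 6 single herbs or from 2 formulas that combine herbs. Each was given at 3 doses. Coptidis Rhizoma was used at 0.56, 2.8 and 14 µg/mL, and Bupleuri Radix at 8.4, 42 and 210 µg/mL. The other herbs, Aconiti Lateralis Radix Preparata, Cimicifugae Rhizoma, Zizyphi Fructus and Citri Unshius Pericarpium, and both formulas, Banhasasim-tang and Yijung-tang, were used at 20, 100 and 500 µg/mL. The vehicle group received 0.1% DMSO per the sample labels, whereas the series text gives 2%. Where an extract lowered viability by 20% below 500 µg/mL, that concentration was its high dose, so the Coptidis and Bupleuri high doses were set by viability. Each dose had 3 libraries for Aconiti, Bupleuri, Cimicifugae and Citri, 2 for Yijung-tang, Zizyphi and Coptidis, and 1 for Banhasasim-tang, before 2 libraries were left out. The vehicle had 3. The labels do not say whether replicates came from separate cultures, so p-values reflect only how far these libraries spread, and that spread may be technical.

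The cytosolic ribosome joins a small subunit, which reads the mRNA, to a large subunit, which forms the peptide bond. A stalk of P-proteins on the large subunit recruits elongation factors. Cells make most ribosomal proteins in matched amounts, and their mRNAs are long-lived and abundant. Many of these mRNAs begin with a C followed by a run of pyrimidines, the 5′ terminal oligopyrimidine (TOP) motif. Through this motif mTORC1 and the RNA-binding protein LARP1 control their translation and stability when growth conditions change. In gliomas, as in other tumours, ribosome production accompanies growth.

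The start regions below are shown because the TOP motif is the sequence feature that most members share. Each is the 40-base window around the RefSeq start on GRCh38.p14, 20 bases before and 20 from the annotated first base, and capitals mark the unbroken pyrimidine stretch that holds this first base. The windows are RPL3 at chr22:39319604-39319643 on the minus strand, RPL12 at chr9:127451387-127451426 on the minus strand, RPL13A at chr19:49487588-49487627 on the plus strand and RPL41 at chr12:56116613-56116652 on the plus strand. RPLP0 is at chr12:120201092-120201131 and RPS6 at chr9:19380217-19380256, both on the minus strand. RPL10A at chr6:35468381-35468420 and RPS26 at chr12:56041898-56041937 are on the plus strand, and RPS27L at chr15:63157458-63157497 is on the minus strand.
RPL3: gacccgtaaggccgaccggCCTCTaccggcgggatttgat
RPL12: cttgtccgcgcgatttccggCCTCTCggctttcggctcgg
RPL13A: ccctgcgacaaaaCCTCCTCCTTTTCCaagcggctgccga
RPL41: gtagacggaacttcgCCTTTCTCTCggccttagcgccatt
RPLP0: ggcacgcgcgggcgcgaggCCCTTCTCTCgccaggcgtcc
RPS6: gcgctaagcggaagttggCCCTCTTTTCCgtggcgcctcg
RPL10A: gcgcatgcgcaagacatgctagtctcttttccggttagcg
RPS26: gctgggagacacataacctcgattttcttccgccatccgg
RPS27L: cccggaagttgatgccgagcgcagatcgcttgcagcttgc

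RefSeq promoters were at hand for 64 members. A C at the annotated first base followed by at least 4 bases of C or T, read on the gene's own strand only, stood at 42 of them (65.6%). The same run stood at 1429 of all 35116 promoters (4.07%). Of the windows shown, RPL12, RPL13A, RPL41, RPLP0 and RPS6 hold the run. RPL3 has a stretch that is 1 pyrimidine short of it, and RPL10A, RPS26 and RPS27L have a purine at the annotated start. An annotated start need not be the start used in these cells, so a missing run says only that these letters are not at that base.

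Library totals ran from 11329310 to 30990264 counts. Libraries 1 of high-dose Aconiti and 1 of low-dose Yijung-tang stood apart and were left out, and without them the lowest total was 15996157 counts. The remaining 58 libraries gave the levels, as CPM, which are counts scaled to a common library total with edgeR's TMM factors. Of these, 54 libraries in 21 groups entered 1 edgeR fit over all genes that passed a filter on low counts, and the 3 Banhasasim-tang libraries and the remaining low-dose Yijung-tang library were described without a test. A gene is called higher or lower where its Benjamini-Hochberg adjusted p over all tested genes is under 0.05. Of 8 astrocyte and glioma marker genes, 5 reached 1 CPM, and they summed to 7100 to 7480 CPM in vehicle libraries. Nearly all of this was VIM (mean over libraries 4460 CPM) and CD44 (2660 CPM), which many cell types express, while the astrocyte markers GFAP (0.141 CPM), S100B (0.15 CPM) and AQP4 (under 0.1 CPM) were nearly absent. Of the epithelial markers KRT18 averaged 168 CPM and KRT8 19.1 CPM, and EPCAM and CDH1 lay under 0.1 CPM. Of the leukocyte markers CD68 averaged 186 CPM and PTPRC 10.5 CPM, and TYROBP, ITGAM and AIF1 lay under 0.1 CPM. In RNA from whole cultures, fewer cells of a type and less RNA per cell cannot be told apart.

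Of the 81 members, 79 passed the filter on low counts. RPL10L, a retrogene copy of RPL10, averaged 0 CPM in vehicle libraries, and RPL3L, a paralogue known from striated muscle, averaged 0.128 ± 0.0655 CPM (SD, n = 3). Neither was tested. Per kilobase of coding sequence, the highest vehicle levels were those of RPL41, with 6290 CPM per kb, RPL39, with 3563 CPM per kb, and RPL10, with 1899 CPM per kb. RPL41 is the smallest ribosomal protein, and RPL39 lines the peptide exit tunnel. The lowest among tested members were the paralogues RPL39L, with 62.5 CPM per kb, and RPS27L, with 266 CPM per kb, followed by RPL34 of the large subunit, with 330.2 CPM per kb. Counts also hold reads from untranslated parts of an mRNA, so this division favours members with short coding sequences. Without it RPL41 had 490.6 CPM and RPL39 555.8 CPM in vehicle libraries, below RPL10, at 1225 CPM, and RPS2, at 1508 CPM.

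Together the members took 3.81, 3.85 and 3.90% of all counts in the 3 vehicle libraries. In the Coptidis libraries they took 3.65 and 3.70% at the low dose, 3.47 and 3.55% at the medium dose and 4.25 and 4.38% at the high dose. Only the high dose lay above the vehicle libraries. Mitochondrially encoded genes took 13.39 to 13.53% of counts at the medium Coptidis dose and 4.66 to 4.94% in vehicle libraries. Leaving those genes out, the mean member share was 3.95% at the low, 4.06% at the medium and 4.69% at the high Coptidis dose, against 4.04% in vehicle libraries. In Banhasasim-tang the share was 3.71% at the low, 3.66% at the medium and 4.49% at the high dose. The 3 low-dose Bupleuri libraries held 3.75, 3.81 and 4.42%, and replicate 3 gave the highest value. The other groups averaged 3.47 to 3.94%.

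**Figure D1:**
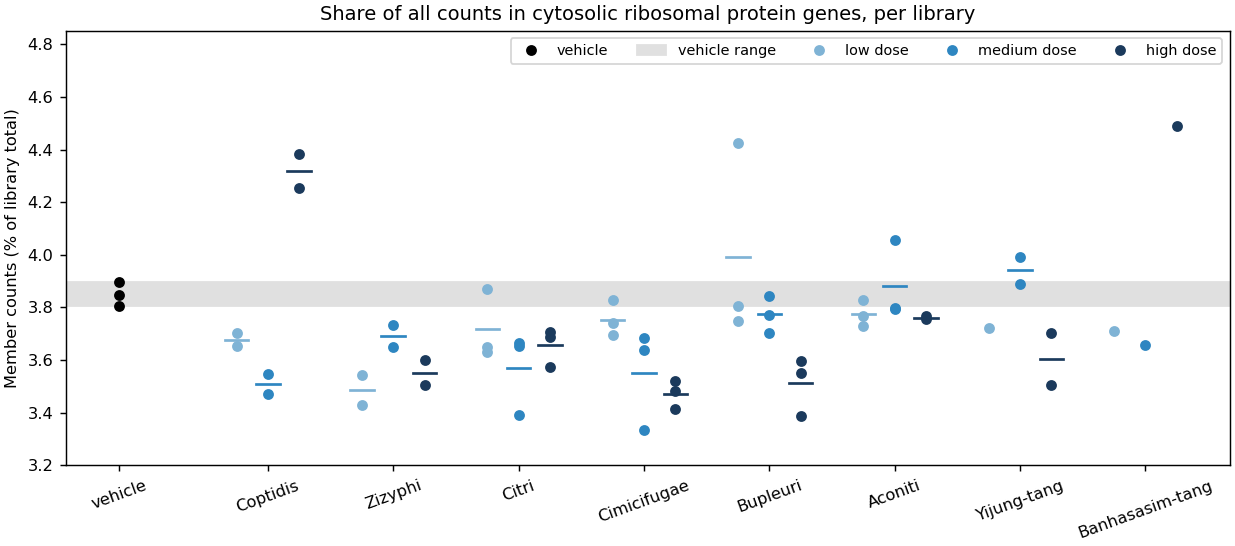
Share of each library's counts that fell on the 81 members (percent, vertical axis starting at 3.2) for vehicle and for the low, medium and high dose of each extract. Points are libraries, short lines are means of groups with at least 2 libraries and the grey band is the vehicle range of 3.81 to 3.90%. High-dose Coptidis and Banhasasim-tang lie above the band. So do low-dose Bupleuri replicate 3 (4.424%), medium-dose Aconiti replicate 2 (4.055%) and medium-dose Yijung-tang replicate 2 (3.991%).

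The members moved together across libraries. The correlation of a member's log2 CPM with the mean of the other members had a median of 0.89 over 58 libraries, and RPL18 had the highest value, 0.96. These points share library scaling and treatment. As deviations from group means over 54 libraries, the median was 0.695. Over the 58 libraries, the 3 members least like the rest were RPS26, at -0.315, RPS27L, at 0.358, and RPL39L, at 0.52. As deviations from group means, RPS26 was at 0.455, RPS27L at 0.384 and RPL39L at 0.539. On that measure the lowest members were RPS2, at 0.196, and RPS24, at 0.267.

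Dose comparisons within an extract come first below, because high and low doses of an extract carry the same set number in their sample names, while vehicle libraries carry none. The 79 tested members moved in opposite directions in different extracts. Their median log2 fold change between high and low dose was 0.47 for Coptidis, -0.18 for Bupleuri and -0.13 for Cimicifugae, and -0.15 for Yijung-tang between high and medium dose. It was -0.05 for Citri, -0.03 for Aconiti and 0.00 for Zizyphi. Over all tested genes the medians of these comparisons lay between -0.02 and 0.00. With the 2 left-out libraries back in the fit, 18 members were called for Coptidis and 0 in each of the other 6 comparisons. The 18 include RPL3, RPL12, RPL10A and RPS26. Apart from these 18, the calls were lost when those libraries entered the shared fit. Outside Aconiti, neither library belongs to a group compared here. Fits of only the compared groups called 33 members in Bupleuri, 0 in Zizyphi and 5 in Aconiti. The share of all tested genes called in that fit is not given here, so the loss of member calls cannot be set against it.

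**Figure D2:**
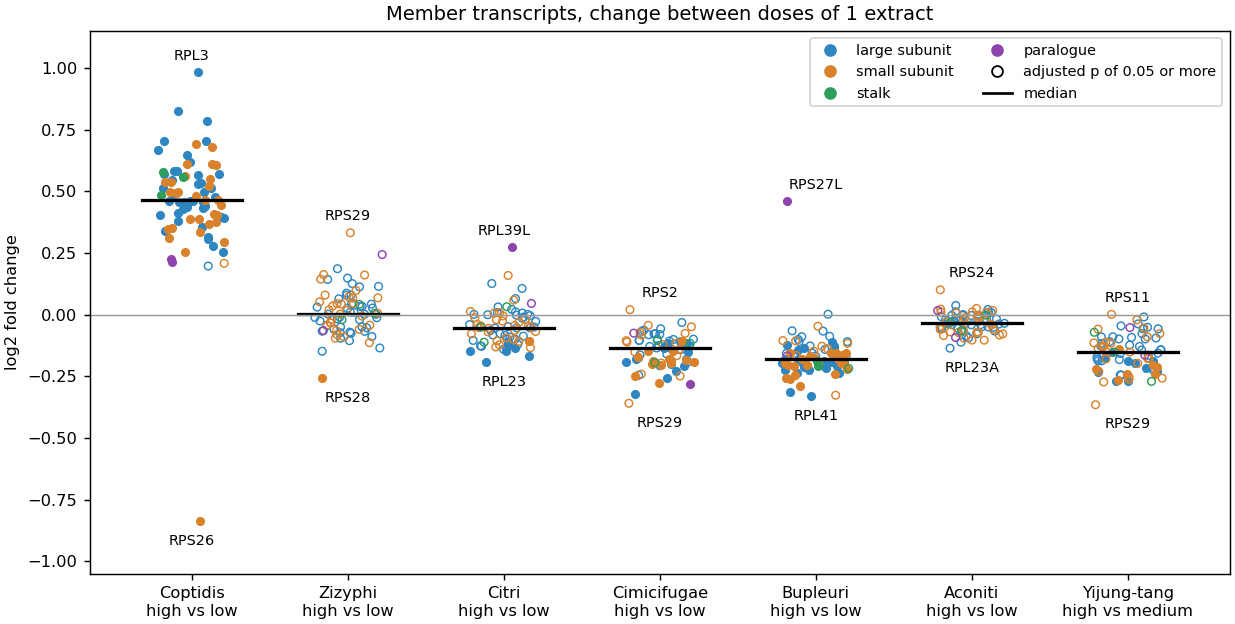
Log2 fold change of each of the 79 tested members between high and low dose of 6 extracts, and between high and medium dose of Yijung-tang. Filled points have an adjusted p under 0.05, colours give the subunit and black lines are medians. Coptidis members cluster near 0.47 with RPS26 far below, and RPS27L stands above the other members in Bupleuri.

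**Figure D3:**
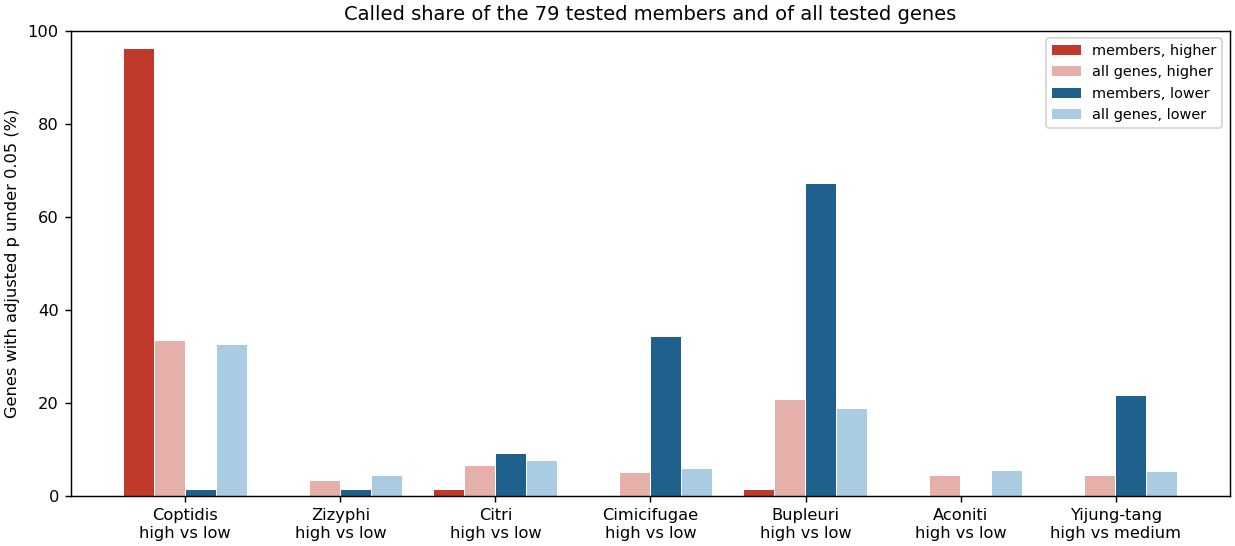
Percent of the 79 tested members and of all tested genes called higher or lower in the same 7 comparisons. Members called higher prevail in Coptidis, and members called lower prevail in Bupleuri, Cimicifugae and Yijung-tang.

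At the high Coptidis dose, set against the low dose, nearly all members of both subunits were higher and RPS26 was lower. Of all tested genes, 65.6% were called in this comparison, 33.2% higher and 32.4% lower. Of the 79 members, 76 rose, 1 fell and 2 did not pass. Of 43 large-subunit members, 42 rose, with a median log2 fold change of 0.46. RPL3, which reaches into the peptidyl transferase centre, had 1072 and 1092 CPM at the high dose, against 542.6 and 555.3 CPM at the low dose. Both high-dose values exceed those of all other libraries, and its log2 fold change was 0.98 ± 0.05 (SE, edgeR adjusted p = 1.89e-20). RPL12, a protein at the base of the stalk, had 882.3 and 940.5 CPM at the high dose, against 514.4 and 515.1 CPM at the low dose, without overlap. Its log2 fold change was 0.83 ± 0.05 (SE, edgeR adjusted p = 1.26e-18). RPL3 spans chr22:39312882-39320389 and RPL12 chr9:127447674-127451405, both on the minus strand (GENCODE 29, GRCh38). RPL10A (chr6:35468408-35470785), the protein of the mobile L1 stalk, had 452.3 and 467.5 CPM at the high dose, against 265.9 and 269.1 CPM at the low dose. Its log2 fold change was 0.79 ± 0.05 (SE, edgeR adjusted p = 8.77e-18).

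Among the other large-subunit members, RPL10, which joins the subunit last in the cytoplasm, rose by 0.67 (log2) and RPL13A, also studied in interferon-driven translational silencing, by 0.58. RPL5 and RPL11, which carry 5S rRNA and bind the p53 regulator MDM2, rose by 0.46 and 0.35. RPL41 rose by 0.48, RPL39 by 0.49, RPL36A by 0.43 and RPL22 by 0.34. RPL27 did not pass, with 526.1 and 559.3 CPM at the high dose, against 522.9 and 426.3 CPM at the low dose (edgeR adjusted p = 0.0923). All 3 stalk members rose, RPLP0 by 0.49, RPLP1 by 0.56 and RPLP2 by 0.58 (log2).

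Of 31 small-subunit members, 29 rose, and their median log2 fold change was 0.47. RPS6, the substrate of S6 kinase, had 1267 and 1304 CPM at the high dose, against 906 and 917.4 CPM at the low dose, and rose by 0.50 ± 0.04 (SE, edgeR adjusted p = 2.14e-14). RPS3, at the mRNA entry channel, also rose by 0.50, RPS28 by 0.68, RPS4X by 0.39, RPS27 by 0.38 and RPSA, the laminin-receptor protein of the small subunit, by 0.37. RPS27A, made as a fusion with ubiquitin, rose by 0.34, a call that was lost without low-dose replicate 2. RPS29 did not pass, with 67.9 and 65.3 CPM at the high dose, against 58.1 and 57.5 CPM at the low dose (edgeR adjusted p = 0.359).

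RPS26 (chr12:56041351-56044697) went the other way. It sits at the mRNA exit channel and contacts mRNA upstream of the start codon, and it is among the genes mutated in Diamond-Blackfan anaemia. It had 95.7 and 97.95 CPM at the high Coptidis dose, against 180.9 and 166.1 CPM at the low dose. These 2 high-dose values were the lowest of all 58 libraries. The log2 fold change was -0.84 ± 0.08 (SE, edgeR adjusted p = 4.52e-13), a fall to 0.56 of the low-dose level. It kept its call in each of the 4 fits that left out a library and in every other alternative tried. No gene with counts overlaps RPS26, but 36 processed copies carry its name, and adding their counts left the call in place.

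Both tested paralogues had smaller fold changes than RPS27, at 0.38, and RPL39, at 0.49, in this comparison. RPS27L, a p53-induced copy of RPS27, had 68.8 and 69.6 CPM at the high dose, against 59.2 and 60.3 CPM at the low dose, a log2 fold change of 0.22 ± 0.10 (SE, edgeR adjusted p = 0.0495). RPL39L, best known from the testis, had 11.5 and 11.6 CPM at the high dose, against 9.82 and 9.96 CPM at the low dose (log2 fold change 0.23 ± 0.10, SE, edgeR adjusted p = 0.0338). Both calls were lost in all 4 fits that left out a library. The difference between a paralogue and its partner was not tested.

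Of the 77 Coptidis calls, 72 to 75 were counted in the 4 fits without a library, and 18 with the 2 left-out libraries put back. Mitochondrially encoded genes took 7.81 to 8.01% of counts at the high dose, against 6.46 to 7.25% at the low dose, and the part of this difference in the member values was not tested. VIM, which is also among the TOP-type translation genes counted below, had 7927 to 7958 CPM at the high dose, against 4545 to 4722 CPM at the low dose. The other astrocyte and glioma markers, which are mostly CD44, together summed to 2400 to 2467 CPM at the high dose, against 2851 to 2872 CPM at the low dose. Among them SLC1A3 had 1.89 to 2.81 CPM at the high dose, against 33.16 to 34.42 CPM at the low dose. NES had 1.21 to 1.38 CPM at the high dose, against 9.62 to 11.53 CPM at the low dose. The leukocyte list, which is mostly CD68, summed to 267 to 278 CPM at the high dose, against 180 to 184 CPM at the low dose. PTPRC of that list went the other way, with 3.09 to 4.39 CPM at the high dose, against 11.98 to 12.14 CPM at the low dose. The epithelial list, which is mostly KRT18, summed to 165 to 167 CPM at the high dose, against 207 to 219 CPM at the low dose. The part of these markers in the member values was not tested.

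At the medium Coptidis dose, set against the low dose, 7 members were called, beside 7.68% of all tested genes called higher and 5.89% called lower. The unadjusted edgeR p was under 0.05 in 24.1% of members and 25% of all tested genes, so members did not stand out by number. Of the 7 called members, RPL3, RPL4, RPL12, RPL13, RPL13A and RPL15 rose, and RPS26 fell by 0.24 (log2, edgeR adjusted p = 0.0202). RPL3 had 660.6 and 655.1 CPM at the medium dose and rose by 0.26 (log2, edgeR adjusted p = 0.000338). RPS26 thus had 180.9 and 166.1 CPM at the low, 147.1 and 145.6 CPM at the medium and 95.7 and 97.95 CPM at the high dose, with no overlap between doses. The medium doses of the other 5 herbs gave 0 called members against their low doses in edgeR. Of all tested genes, 0.385% were called in Cimicifugae, 0.368% in Bupleuri, 0.0509% in Aconiti and 0.00566% in each of Zizyphi and Citri. At an unadjusted p under 0.05 there were 26 members in Cimicifugae, beside 10.4% of all tested genes, 23 in Bupleuri, beside 10.5%, 15 in Citri, beside 6.8%, 11 in Zizyphi, beside 5.63%, and 2 in Aconiti, beside 5.33%.

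Other genes of the translation machinery were followed through lists. Beside them stand the 33.2% of all tested genes called higher and the 32.4% called lower between high-dose and low-dose Coptidis. In high-dose against low-dose Coptidis, 19 of 20 TOP-type translation genes rose and none fell, with a median log2 fold change of 0.56, led by the initiation factor EIF4B, at 1.21, and the elongation factor EEF2, at 1.00. Of 10 TOP-type host genes of small nucleolar RNAs, 9 rose, among them GAS5, at 1.56, and SNHG1, at 1.13. The run at the annotated start stood at 10 of 13 promoters at hand for the translation list and at 4 of 9 for the hosts. Ribosome biogenesis genes were less uniform, with 19 of 30 higher, such as NOB1, at 1.08, and 4 lower, such as UBTF, at -0.70, and NOP56, at -0.45. Of 16 genes of mTORC1 and TOP control, 8 rose, among them EIF4EBP1, at 1.58, LARP1B, at 1.43, and RHEB, at 1.27. In the same list 5 fell, among them EIF4EBP2, at -1.11, and RPTOR, at -0.57. Of 16 other initiation factors, 7 rose, EIF1 most clearly at 1.69, and 4 fell, including EIF4G2, at -0.40. Of 7 ribosomal genes outside the name pattern, RACK1 rose by 0.77 and RPL22L1, the paralogue of RPL22, by 1.61, while RPL7L1 fell by 0.19, and 5 rose in all.

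Members with and without a TOP run at the annotated start overlapped in their fold changes. In Coptidis the 42 members with the run had a median log2 fold change of 0.49, against 0.45 for the 20 without it, leaving out the paralogues. The highest and the lowest member, RPL3 and RPS26, were both among those without the run. In Bupleuri the medians were -0.18 with the run and -0.16 without it. Across the 77 members other than the paralogues, the rank correlation of log2 fold change with coding length was 0.227 in Coptidis and 0.059 in Bupleuri, given as a description over genes.

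**Figure D4:**
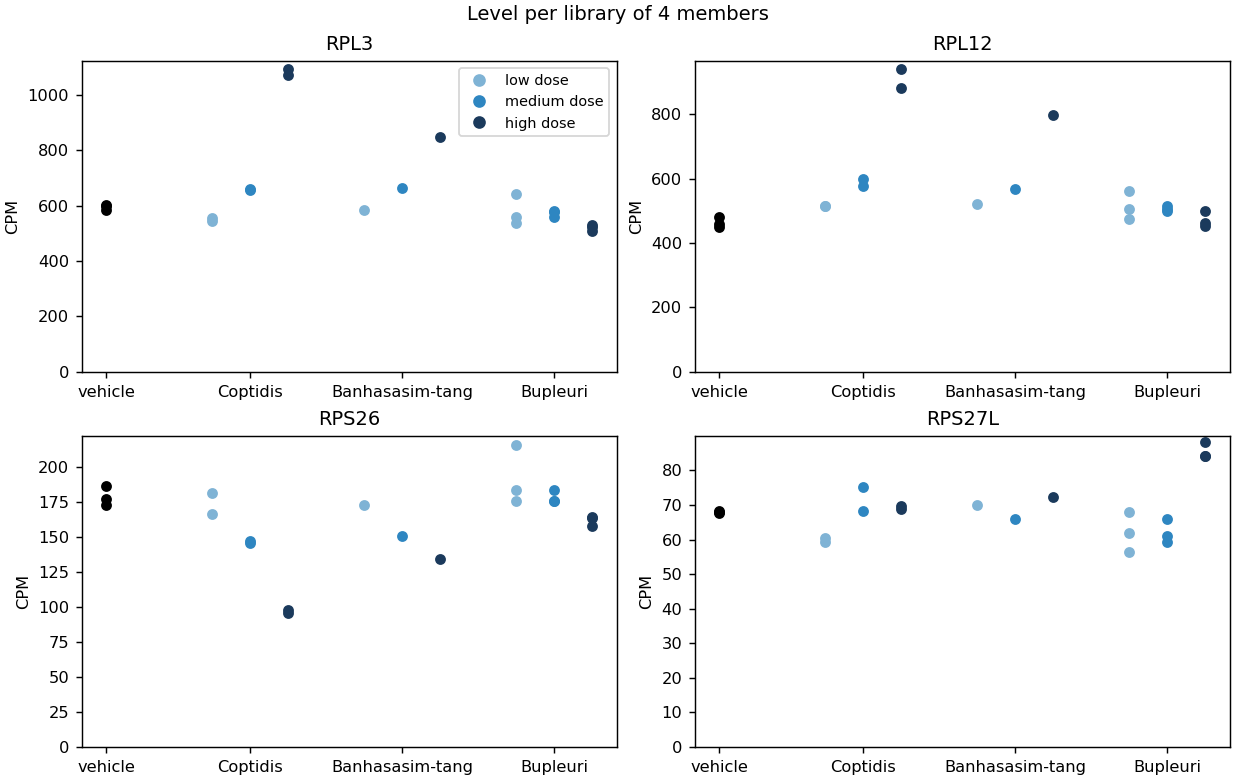
Levels of RPL3, RPL12, RPS26 and RPS27L in CPM (vertical axes from 0) in vehicle libraries and at the low, medium and high dose of Coptidis, Banhasasim-tang and Bupleuri. Each point is a library. RPS26 is lower at each higher dose in Coptidis and Banhasasim-tang, as are its group means in Bupleuri (191.6, 178.2 and 161.5 CPM), and RPS27L is highest at the high Bupleuri dose.

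Banhasasim-tang, with 1 library per dose and no test, also had most members higher and RPS26 lower at the high dose. Of the 79 members, 65 were more than 1.2-fold higher at the high than at the low dose and 1 was more than 1.2-fold lower. Of all tested genes, 26.3% were that much higher and 27.8% that much lower. The median difference of members was 0.36 in log2 CPM, against 0.00 for all tested genes. RPL12 had 520.7 CPM at the low, 567.1 CPM at the medium and 796.4 CPM at the high dose. RPL3 had 583.8, 665.1 and 846.5 CPM at the low, medium and high dose, and RPL10A had 272.4, 289.6 and 401.5 CPM. RPS26 was the member below, with 172.3, 150.2 and 133.9 CPM at the low, medium and high dose.

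At the high dose 77 of 79 members lay above all 3 vehicle libraries and RPS26 lay below them. Of all tested genes, 40.7% lay above and 39.4% below them in that library. At the low dose 25 members lay above and 36 below, and at the medium dose 37 above and 18 below. The shares of all tested genes were 31% above and 31.3% below at the low dose, and 35.2% above and 35.3% below at the medium dose. In 61 members the levels ran upward through low, medium and high dose, as they did in 29.8% of all tested genes. Across the 79 members, the difference between high and low Banhasasim-tang had a Pearson correlation of 0.756 with the Coptidis fold change, and 0.591 without RPS26. The points are genes of the same libraries, so the value is a description. Mitochondrially encoded genes took 8.88% of counts at the low, 13.12% at the medium and 11.65% at the high dose of this formula, beyond the 4.66 to 4.94% of vehicle libraries.

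**Figure D5:**
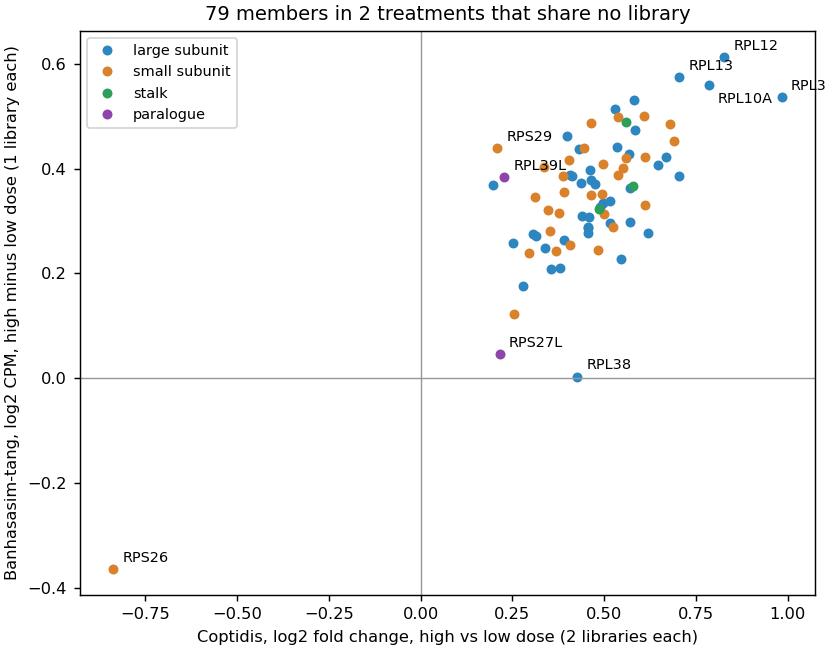
Each of the 79 tested members by its log2 fold change between high and low Coptidis dose (horizontal, 2 libraries each) and its difference in log2 CPM between the high and low Banhasasim-tang library (vertical, 1 library each). RPS26 lies at the lower left, and RPL12, RPL3, RPL10A and RPL13 lie at the upper right.

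With Bupleuri, members of both subunits fell and the paralogue RPS27L rose. At the high against the low dose, 53 members fell, 1 rose and 25 did not pass, beside 39.2% of all tested genes called, 20.6% higher and 18.6% lower. Falls covered 29 of 43 large-subunit members, 22 of 31 small-subunit members and 2 of 3 stalk members, RPLP0 and RPLP2. RPL27A had 389.4, 401.9 and 369.6 CPM at the high dose, against 446.8, 468.2 and 529.3 CPM at the low dose. It fell by 0.31 (log2, edgeR adjusted p = 1.21e-06) without overlap. RPL41 had 450.9, 503 and 520.5 CPM at the high dose, against 590.5, 577.1 and 690.7 CPM at the low dose, and fell by 0.33 (log2, edgeR adjusted p = 0.0122). RPS12 fell by 0.29 (log2, edgeR adjusted p = 0.0229).

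RPS27L (chr15:63125872-63158021) was the member that rose. It had 84.1, 84.1 and 88.3 CPM at the high Bupleuri dose, against 61.9, 56.5 and 68.0 CPM at the low dose. The 3 high-dose values were the highest of all 58 libraries. Its log2 fold change was 0.46 ± 0.08 (SE, edgeR adjusted p = 2.92e-06), and the call held in all 6 fits that left out a library. Its partner RPS27 fell by 0.16 (log2, edgeR adjusted p = 0.0481), with overlapping libraries. RPS27L overlaps LACTB on the opposite strand, which averaged 32.4 CPM beside 62.8 CPM for RPS27L, and the sources used here do not give whether counting used strand.

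Size and number of the Bupleuri falls leaned on low-dose replicate 3, the library with the high member share. Without it 17 members were called and the median log2 fold change was -0.10, and without any other single library 36 to 64 were called. RPL3, RPL10, RPL41 and RPS12 lost their calls without it, RPL41 and RPS12 also without high-dose replicate 1, while RPL27A, RPL5, RPL11, RPL13A and RPS6 kept theirs in all 6 fits. Fitting only the high-dose and low-dose libraries called 33 members. The list counts that follow stand beside 20.6% of all tested genes called higher and 18.6% called lower. Of the TOP-type translation genes 8 of 20 fell, such as EEF1G, at -0.24, and PABPC1, at -0.24, and 2 rose, EIF3A, at 0.34, and EIF4B, at 0.21. Of the mTORC1 and TOP control genes 8 of 16 rose, among them TSC1, at 0.77, and LARP1, at 0.32, and 2 fell, RPS6KB2, at -0.22, and AKT1S1, at -0.21. Of the biogenesis genes 11 of 30 rose, such as WDR12, at 0.46, and 3 fell. Of the 7 ribosomal genes outside the name pattern, FAU fell by 0.24, RPL7L1 rose by 0.09 and 5 did not pass. Of the small nucleolar RNA hosts 2 of 10 fell, and of the other initiation factors 4 of 16 rose and 1 fell. KRT18 had 51.6 to 54.2 CPM at the high dose, against 208.1 to 228.8 CPM at the low dose, and the epithelial list it leads summed to 60.5 to 64.0 CPM at the high dose, against 231 to 254 CPM at the low dose. CD68 had 245.4 to 270.1 CPM at the high dose, against 159.7 to 178.3 CPM at the low dose. PTPRC, also a leukocyte marker, went the other way, with 2.79 to 3.17 CPM at the high dose, against 11.11 to 12.37 CPM at the low dose. The part of these markers in the member values was not tested.

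With Cimicifugae, 27 members fell and 0 rose at the high against the low dose, beside 10.7% of all tested genes called, 4.88% higher and 5.81% lower. The falls were 12 in the large subunit, 14 in the small subunit and the paralogue RPS27L. RPL31, at the peptide exit, had 98.0, 102 and 102 CPM at the high dose, against 138.3, 124.6 and 113.1 CPM at the low dose, and fell by 0.32 (log2, edgeR adjusted p = 0.0119). RPS27L had 52.1, 53.3 and 50.4 CPM at the high dose, against 63.3, 59.8 and 66.0 CPM at the low dose, and fell by 0.28 (log2, edgeR adjusted p = 0.0166). RPS27A fell by 0.28 (log2, edgeR adjusted p = 0.0397). These groups did not overlap, yet each of the 3 calls was lost in some fits that left out a library, 2 of 6 for RPL31, 3 of 6 for RPS27L and 5 of 6 for RPS27A.

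The Cimicifugae count also depended on single libraries. It was 10 without high-dose replicate 1, 5 without high-dose replicate 2, 6 without low-dose replicate 1 and 15 without low-dose replicate 2, and 19 and 21 without replicate 3 of the high and low dose. Without the filter on low counts 56 members were called. The list counts that follow stand beside 4.88% of all tested genes called higher and 5.81% called lower. Of the TOP-type translation genes 10 of 20 fell and none rose, NPM1 by 0.24 and NACA by 0.21 on the log2 scale. Of the biogenesis genes 6 of 30 fell, including NOP56 by 0.22 and BOP1 by 0.19, and none rose. Of the other initiation factors 6 of 16 fell, and 0 of 10 small nucleolar RNA hosts passed.

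With Yijung-tang, 17 members fell and 0 rose at the high against the medium dose, beside 9.16% of all tested genes called, 4.11% higher and 5.05% lower. RPL24, which forms a bridge between the subunits, had 158.8 and 178.3 CPM at the high dose, against 199.3 and 206.8 CPM at the medium dose, and fell by 0.27 (log2, edgeR adjusted p = 0.00267). RPL35A fell by 0.27 (log2, edgeR adjusted p = 0.0234) and RPS20 by 0.26 (log2, edgeR adjusted p = 0.0301). These calls were lost without high-dose replicate 1 and without medium-dose replicate 2. Without these libraries 1 and 0 members were called in all, without medium-dose replicate 1 there were 11, and without high-dose replicate 2 there were 17. The low-dose library that remained had 17 members above and 49 below all vehicle libraries, against 31.1% of all tested genes on either side. In the high against the medium dose 6 of 20 TOP-type translation genes and 8 of 30 biogenesis genes fell and none rose.

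With Citri, Zizyphi and Aconiti, few members passed the test between high and low dose. In Citri 1 member rose and 7 fell, beside 13.8% of all tested genes called, 6.44% higher and 7.34% lower. RPL39L rose, with 12.3, 12.4 and 11.2 CPM at the high dose, against 9.29, 9.51 and 10.8 CPM at the low dose, a log2 fold change of 0.27 ± 0.07 (SE, edgeR adjusted p = 0.00867) that was not called without low-dose replicate 1. RPL23 fell by 0.19 (log2, edgeR adjusted p = 0.0035) and kept its call in all 6 fits that left out a library. RPL26 fell by 0.17 (log2, edgeR adjusted p = 0.00727), a call lost without high-dose replicate 2, and RPL18 by 0.15 (log2, edgeR adjusted p = 0.0478), a call lost in 4 of 6 such fits. The Citri count was 4 without high-dose replicate 1, 3 without high-dose replicate 2, 5 without low-dose replicate 1 and 3 without low-dose replicate 3.

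In Zizyphi the called member was RPS28, with 164.8 and 135.6 CPM at the high dose, against 183 and 176.8 CPM at the low dose, beside 7.4% of all tested genes called, 3.12% higher and 4.28% lower. It fell by 0.26 (log2, edgeR adjusted p = 0.0393), and the call was lost without either low-dose replicate or high-dose replicate 3. Without high-dose replicate 2 there were 2 calls. In Aconiti 0 members were called by edgeR and by DESeq2, and 0 had an unadjusted edgeR p under 0.05, as 20.7% of all tested genes did, beside 9.53% of all tested genes called, 4.28% higher and 5.25% lower. Fitting only its high-dose and low-dose libraries called 5. Of the 20 TOP-type translation genes, 1 rose and 6 fell in Citri, 1 rose and 0 fell in Zizyphi, and 1 rose and 3 fell in Aconiti. The shares of all tested genes in Citri were 6.44% called higher and 7.34% called lower.

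Dose effects of extracts in the same set were compared through the interaction in the same fit. Coptidis minus Zizyphi differed in 70 members, 69 higher and 1 lower, beside 28.1% of all tested genes called higher and 27.2% called lower. RPL3 led with a difference of 0.96 (log2, edgeR adjusted p = 9.79e-15), followed by RPS28, at 0.94, RPL12, at 0.85, and RPL10, at 0.82. RPS26 was the lower member, at -0.76 (log2, edgeR adjusted p = 5.59e-08). Bupleuri minus Aconiti differed in 13 members, beside 13% of all tested genes called higher and 10.5% called lower. The unadjusted edgeR p was under 0.05 in 35.4% of members and 33.4% of all tested genes, so members did not stand out by number. RPS27L was higher by 0.55 (log2, edgeR adjusted p = 0.000278), and 12 members were lower, RPS24 most by -0.28 (log2, edgeR adjusted p = 0.0179). Citri minus Cimicifugae gave 0 called members in edgeR, beside 1.07% of all tested genes, with 14 members and 11.2% of all tested genes at an unadjusted p under 0.05.

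Comparisons with the vehicle share the same 3 vehicle libraries and cannot tell set and treatment apart. Mitochondrially encoded genes took 4.66 to 4.94% of counts in vehicle libraries and at least 5.18% in every treated library that was kept, and the part of this in the calls was not tested. High-dose Coptidis against vehicle gave 70 members higher and 1 lower, beside 34% of all tested genes called higher and 32.6% called lower, with a median log2 fold change of 0.38. RPL12 had 882.3 and 940.5 CPM at the high dose, against 480.3, 451 and 459.6 CPM in vehicle libraries, and rose by 0.98 (log2, edgeR adjusted p = 6.16e-23). RPL3 rose by 0.87 against vehicle libraries of 602, 582.9 and 598.5 CPM. RPS26 fell by 0.88 (log2, edgeR adjusted p = 1.32e-14) against vehicle libraries of 176.9, 172.9 and 186.3 CPM.

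At the other high doses more members were called lower than higher against the vehicle. Cimicifugae had 1 member higher and 54 lower, beside 16.5% and 19.2% of all tested genes. Zizyphi had 2 higher and 40 lower, beside 9.64% and 12% of all tested genes, and Citri 4 higher and 39 lower, beside 14.3% and 17.1%. Yijung-tang had 2 higher and 40 lower, beside 14.1% and 16.7%, and Bupleuri 1 higher and 41 lower, beside 20.2% and 19.4%. Aconiti had 2 higher and 17 lower, beside 12.7% and 15%. Without high-dose replicate 1 the Yijung-tang count of 42 became 10 and the Bupleuri count of 42 became 27. Without high-dose replicate 2 the Zizyphi count of 42 became 22, and without high-dose replicates 2 and 3 in turn the Aconiti count of 19 became 8 and 3.

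Members were also called at the low doses against the vehicle. Zizyphi had 1 member higher and 35 lower, beside 4.82% and 7% of all tested genes. Citri had 4 higher and 18 lower, beside 6.82% and 9.26%, and Coptidis 6 higher and 12 lower, beside 3.39% and 3.94%. Cimicifugae had 2 higher and 17 lower, beside 8.78% and 12%, and Aconiti 3 higher and 13 lower, beside 8.45% and 11.6%. Bupleuri had 17 higher and 0 lower, beside 12% and 14.9%. Among the low-dose libraries of the 6 herbs the highest RPL39 value was 546.2 CPM, in Bupleuri replicate 3, against 560.7, 541.9 and 564.7 CPM in vehicle libraries. The low dose was 25 times below the high dose. Leaving out 1 library gave 1 to 12 calls for Coptidis, 8 to 34 for Zizyphi, 11 to 19 for Citri, 10 to 21 for Cimicifugae, 5 to 10 for Aconiti and 13 to 25 for Bupleuri, where 18 were called without low-dose replicate 3. The lowest Coptidis and Zizyphi counts came without low-dose replicates 2 and 3 in turn, and the lowest Citri, Cimicifugae and Aconiti counts without vehicle replicate 1. Counts were also over 1.5 times lower without vehicle replicates 1 and 2 and low-dose replicate 3 in Coptidis, without low-dose replicates 1 and 2 in Citri, without vehicle replicate 3 and low-dose replicates 2 and 3 in Cimicifugae, and without any other single library in Aconiti. With the left-out libraries put back each of the 6 counts was 0.

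Counts of some members can hold reads of near-identical or overlapping genes. Processed copies by symbol numbered 1586 for 77 members, and the mean vehicle share was 3.92% with their counts and 3.85% without them. Of the members, 60 overlap another gene and 27 overlap one with at least 1% of their own level. RPL17 and RPS10 share exons with the read-through genes RPL17-C18orf32 and RPS10-NUDT3, which averaged 2.05 and 1.34 CPM beside 529 and 457 CPM for the members.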

How the data were processed

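RNA was sequenced as read pairs from a stranded kit, per the labels' protocols. The authors deposited expected counts per gene from RSEM 1.3.3. The submitters' processing notes also name STAR 2.7.3a, Trim Galore 0.6.5, FastQC 0.11.9 and hg38. These sources give no annotation or strand setting. Of the deposited values 9.18% were not whole, and all were rounded before testing.

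Tests used edgeR 4.0.16 in R 4.3.3 (quasi-likelihood, TMM, filterByExpr with a minimum count of 10, Benjamini-Hochberg within each comparison). The 54 libraries of 21 groups shared 1 fit, and the code was tested on simulated data. Levels are CPM on TMM-scaled totals. Positions and coding lengths came from GENCODE 29, and start sequences from RefSeq. DESeq2 1.42.0, other scalings, no low-count filter, fits of only the compared groups, a replicate block and leaving out each library were alternatives.

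Members and gene lists were chosen with earlier results of these data known. Genes are named where they were among the 3 strongest called rises or falls of a dose comparison within an extract, belonged to a fixed set of paralogues, stalk and well-studied members, had extreme levels or the lowest co-variation, or served as examples of a list. RPL4, RPL13, RPL15, RPL27, RPS24 and RPS29 were added after their values were seen. Lists covered TOP-type translation genes, small nucleolar RNA hosts, biogenesis, mTORC1 and TOP control, initiation, ribosomal genes outside the name pattern and cell type markers. The libraries left out stood apart from the others. Totals limit the precision of low members such as RPL39L.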

Additional observations from a re-analysis of the deposited data

Results flagged for a closer look

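The libraries left out of the fit had members at 4.67% (high-dose Aconiti replicate 1) and 10.4% (low-dose Yijung-tang replicate 1) of counts, above the 3.81 to 3.90% of vehicle libraries. The single high-dose Banhasasim-tang library, which enters no test, had 4.49%.

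Dose effects differed between extracts of the same set by the interaction in edgeR. For Coptidis minus Zizyphi 70 of 79 members differed, beside 28.1% of all tested genes higher and 27.2% lower, with RPL3 at 0.96 and RPS26 at -0.76 (log2). For Bupleuri minus Aconiti 13 of 79 members differed, RPS27L higher and all others lower, beside 13% of all tested genes higher and 10.5% lower. The unadjusted edgeR p was under 0.05 in 35.4% of members and 33.4% of all tested genes, so members did not stand out by number. RPS27L was at 0.55 and RPS24 at -0.28 (log2).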

How the results depend on the processing

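Counts of called members between doses were most sensitive to the libraries left out. With these put back, the counts became 18 for Coptidis (77 as reported) and 0 for Zizyphi, Citri, Cimicifugae, Bupleuri and Yijung-tang; against the vehicle they became 24 for Coptidis, 5 for Aconiti and 0 for Zizyphi, Citri, Cimicifugae, Bupleuri and Yijung-tang. The cause was not tested. Without the low-count filter there were 6 for Zizyphi, 17 for Citri, 56 for Cimicifugae and 38 for Yijung-tang between doses, and 32 for Aconiti against the vehicle. Fits of only the compared groups, with fewer samples, gave 0 for Zizyphi, 33 for Bupleuri and 5 for Aconiti between doses, and 50 for Aconiti against the vehicle. Leaving out 1 library gave 72 to 75 for Coptidis, 0 to 2 for Zizyphi, 3 to 9 for Citri, 5 to 21 for Cimicifugae, 17 to 64 for Bupleuri, 0 to 0 for Aconiti and 0 to 17 for Yijung-tang. Against the vehicle the ranges were 66 to 71 for Coptidis, 22 to 40 for Zizyphi, 30 to 39 for Citri, 49 to 53 for Cimicifugae, 27 to 40 for Bupleuri, 3 to 15 for Aconiti and 10 to 38 for Yijung-tang. For low doses against the vehicle, alternatives chosen after seeing the data gave 1 to 12 for Coptidis, 8 to 34 for Zizyphi, 11 to 19 for Citri, 10 to 21 for Cimicifugae, 13 to 25 for Bupleuri and 5 to 10 for Aconiti without 1 library, and 0 for each with the left-out libraries put back. Shares of all tested genes under these alternatives are not given here, so the counts cannot be set against them. No alternative reversed a direction. Same-numbered replicates did not deviate together (34 correlations from -0.068 to 0.085). These are not separate checks, because both replicates give the same value where each group holds 2 libraries. High-dose libraries also recur against the vehicle. With the replicate block the counts were 76 for Coptidis, 1 for Zizyphi, 9 for Citri and 27 for Cimicifugae. They were 55 for Bupleuri, 0 for Aconiti and 18 for Yijung-tang.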
